A study of Homo sapiens with 6 samples.

Results

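DNA replication and S-phase genes were followed in chondrocytes treated with mocetinostat, an inhibitor of class I histone deacetylases (HDACs). The set held 59 genes, from the E2F transcription factors that open S phase to the chaperones that rebuild chromatin behind the fork. They were taken by gene symbol, without a filter on their values, and each symbol matched 1 row of a table of 60623 genes. The list was chosen with earlier results of these data known. TC28a2 cells, an established human chondrocyte line, were kept for 24 hours in 2 μM mocetinostat or in its solvent, DMSO, and each group had 3 samples that the study describes as independent experiments. By their labels the 6 samples differed in treatment and shared the line, which was immortalized with simian virus large T antigen, a protein that binds the RB family. The DMSO group was a solvent control of cycling cells, and no untreated group was analysed here.

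As background, cells that pass from G1 into S phase release E2F factors from RB family proteins, and E2F then drives cyclin E and most of the genes of replication. Origins are first licensed: the origin recognition complex (ORC), CDC6 and CDT1 load the MCM2-7 helicase, and geminin (GMNN) later blocks CDT1 so that no origin is loaded again. The kinases CDK2 and CDC7-DBF4 then turn the helicase on together with CDC45 and GINS, after which polymerases, the PCNA clamp, the single-strand binding protein RPA, and nucleotide synthesis carry the fork. Resting cartilage cells divide rarely, whereas immortalized chondrocyte lines grow continuously.

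RNA was sequenced as single reads of 100 bases, and reads were counted per gene. Total counts were 4873426 to 11031132 in the DMSO group and 1619344 to 5089542 in the mocetinostat group, so that the mocetinostat samples set the precision for genes with few reads. *GAPDH*, a metabolic gene often used as a reference, was at 2953 to 3132 CPM (counts scaled to a common library total with edgeR's TMM factors) with DMSO and at 2034 to 2187 with mocetinostat. Chondrocyte markers were present at low levels, and their summed level was 122 to 146 CPM with DMSO and 269 to 312 with mocetinostat; 8 of 13 rose, *SOX9* carried most of the counts, and *COL9A1*, *COL11A1*, *SOX6*, and *PRG4* had too few reads to be tested. The 4 epithelial markers summed to 0.208 to 0.884 CPM with DMSO and 22.0 to 34.1 with mocetinostat, with *KRT5* and *KRT14* near 0; the part of other cell types in the results was not tested. Sums of the immune markers (1.33 to 2.08 against 5.35 to 11.2 CPM), the endothelial markers (4.98 to 7.08 against 16.1 to 22.8), and the adipocyte markers (0.884 to 2.29 against 0.414 to 1.24) stayed low in both groups. Some markers of other cell types rose as well: the epithelial *CDH1* and *EPCAM*, the immune *CD14*, and the endothelial *PECAM1* and *VWF*.

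The replication genes moved by small amounts and mostly downward. All 59 passed the filter on low counts and were among the 13966 genes tested by the quasi-likelihood method of edgeR, with p-values adjusted by Benjamini-Hochberg; "fell" and "rose" mean an adjusted p under 0.05. With mocetinostat, 34 of the 59 genes fell (57.6%), where 31.4% of all genes tested fell, and 8 rose (13.6%), where 32.9% of all genes rose. The other 17 did not pass the test. The study's terms for larger changes, downregulated genes (DRGs, adjusted p under 0.05 and a log2 fold change under -1) and upregulated genes (URGs, over 1), took in only 4 of the 59. The DRGs were *RRM1* and *POLE2*, 3.39% of the set beside 8.18% of all genes, and the URGs were *ASF1B* and *GINS4*, 3.39% beside 20.2%. The median log2 fold change of the set was -0.30 beside 0.0 for all genes, and its values ran from -1.36 to 1.30. All 3 mocetinostat samples lay below all 3 DMSO samples for 31 genes (52.5%, beside 32.8% of all genes) and above them for 7 (11.9%, beside 33.7%).

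**Figure D1:**
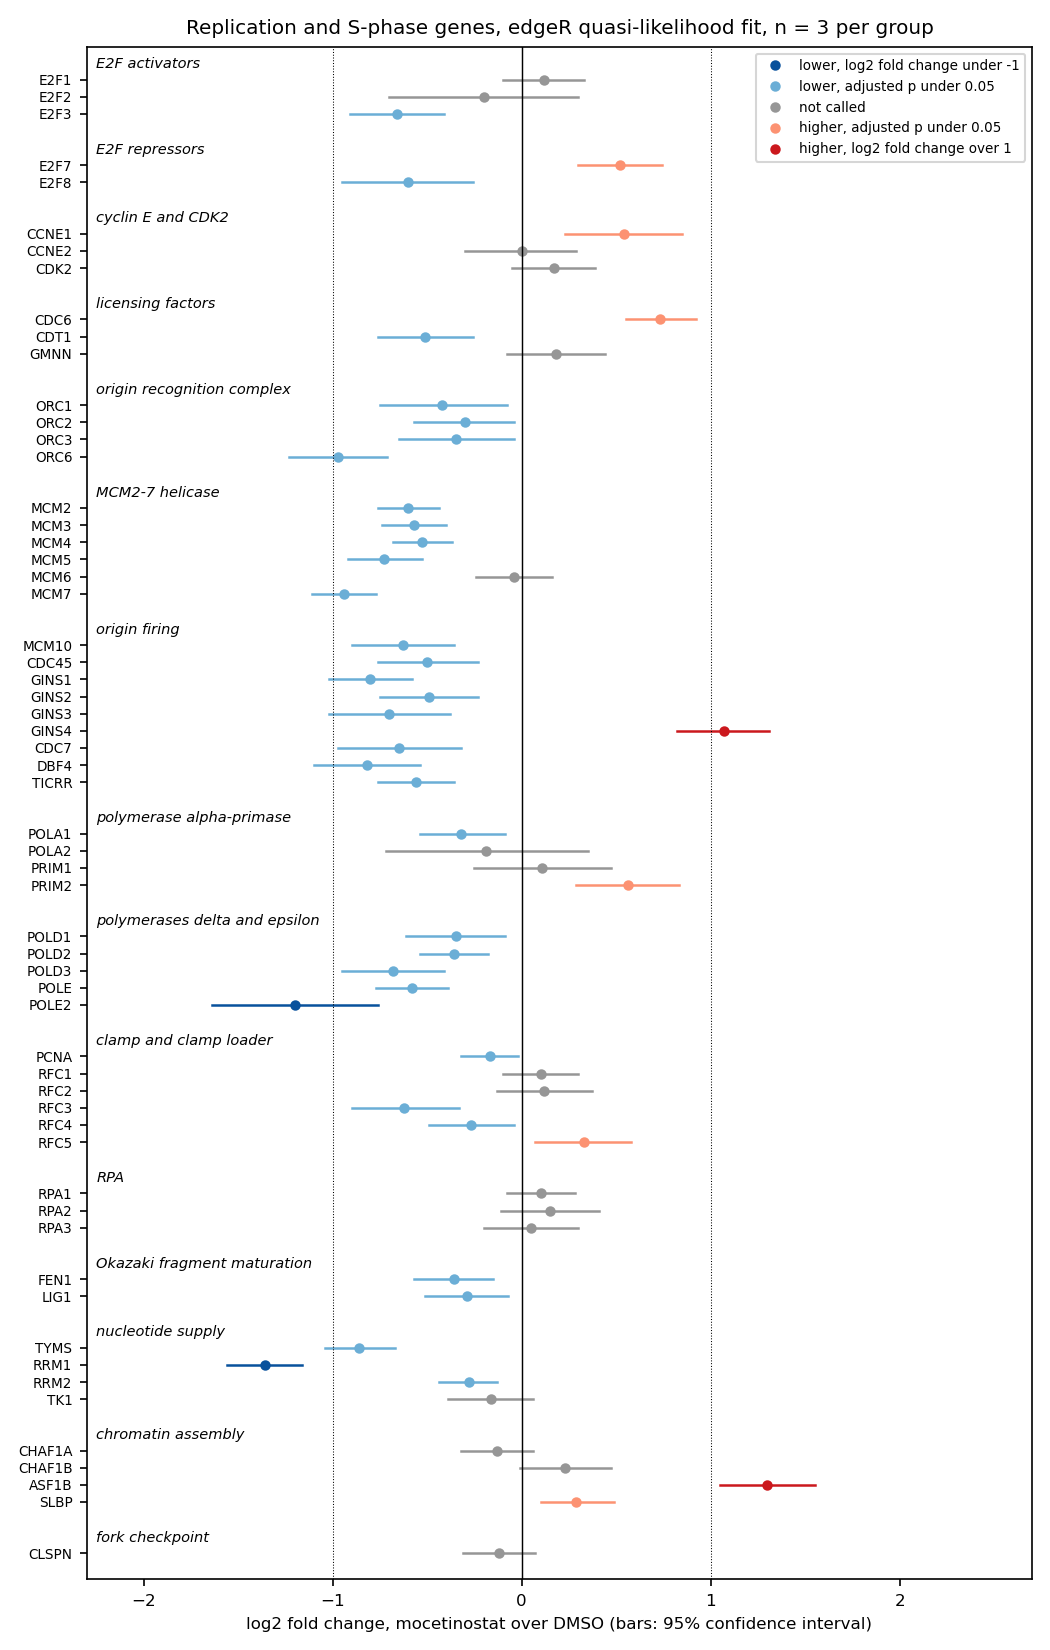
Log2 fold change of each replication and S-phase gene, mocetinostat over DMSO, with its 95% confidence interval as a bar, grouped by role; n = 3 per group, TMM scaling. Most points sit between -1 and 0, *RRM1* (-1.36) and *POLE2* (-1.20) lie left of -1, and *ASF1B* (1.30) and *GINS4* (1.07) lie right of 1; with each library scaled to *GAPDH* every point would move right by about 0.53.

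The direction of such small changes depended on the scaling. *GAPDH*, the reference gene of the study's qPCR, was lower with mocetinostat relative to the other genes, and scaling each library to it moved the median of all genes to 0.53. On that scale the median of the replication genes was 0.23, that is -0.30 relative to all genes, and 40 of the 59 genes stayed below the median of all genes. Only 6 of the 59 fell on it, where 9.82% of all genes did, and 25 rose, where 55.2% of all genes did. It left 0 DRGs (2.03% of all genes) and 6 URGs (31.7% of all genes), and the number of the 59 genes with a value below 0 was 41 with TMM and 19 with *GAPDH*. In bulk RNA, fewer cells in S phase and less RNA of these genes per cell cannot be told apart. The values below use TMM scaling, on which 31.4% of all genes fell and 32.9% rose. The *GAPDH* scale is given for each group of the 59 genes and for the other lists as wholes.

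E2F words were found in many promoters of these genes. RefSeq promoter windows, from 250 bases before the start to 50 bases after it on GRCh38.p14, were present for 50 of the 59 genes. The words searched were TTTCCCGC, TTTCGCGC, TTTGCCGC, and TTTGGCGC on both strands, with overlapping matches counted. At least 1 word was found in 22 of the 50 windows (44%), in 3.33% of all 27305 windows, in 5.43% of the 10361 windows of genes tested, and in 20.8% of the windows of other replication genes. A list of G2/M genes, which act later in the cycle, had the E2F words in 6.82% of windows but the CHR words TTTGAA or TTCGAA in 70.5%. The CHR words were in 10% of the replication gene windows, in 16.6% of all windows, and in 10.9% of those of genes tested. CCAAT was in 58% of the replication gene windows and in 35.7% of all windows, and in 36.9% of those of genes tested. GGGCGG was in 76% of the replication gene windows, in 44.6% of all windows, and in 71.5% of those of genes tested, so that its share was close to that of the genes tested. Within the 150 bases nearest the start, the E2F words were in 40% of the replication gene windows and in 1.71% of all windows. They were in 2.77% of those of genes tested and in 18.9% of those of other replication genes. A match describes the letters and was not tested as a binding site.

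**Figure D2:**
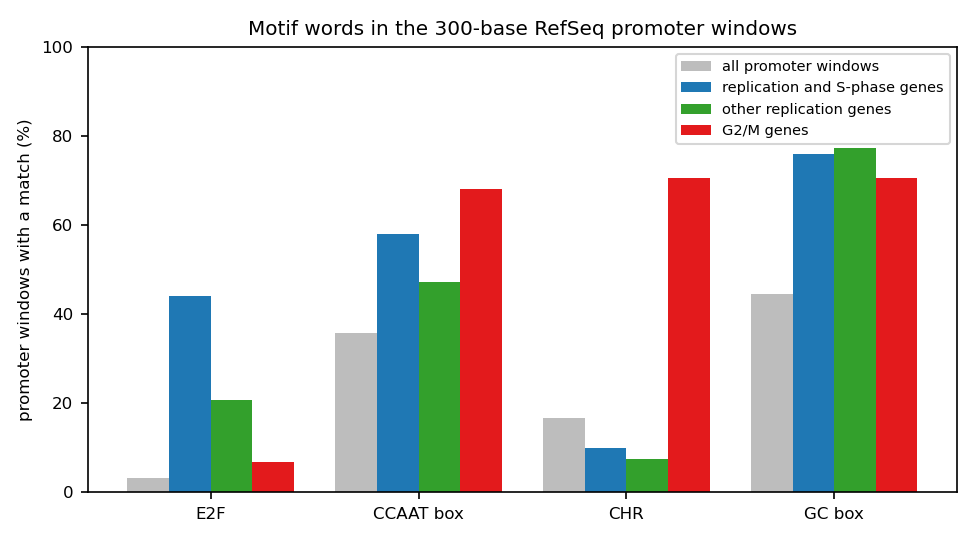
Percent of RefSeq promoter windows with at least 1 match to the words of each motif, for all windows and for the 3 gene lists. The E2F bar of the replication and S-phase genes stands at 44%, and the CHR bar of the G2/M genes stands at 70.5%.

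Stretches of 80 bases before the RefSeq start show the words in capitals, 5′ to 3′ on the gene's strand. *E2F1* (chr20:33686386-33686465, minus), *CDT1* (chr16:88803709-88803788, plus), *MCM6* (chr2:135876519-135876598, minus, 155 to 76 bases before the start), and *PCNA* (chr20:5126638-5126717, minus, 95 to 16 bases before the start) are shown because they hold the words and yet did not move alike. In *MCM6* the capitals mark 4 matches as overlapping words on opposite strands.
E2F1: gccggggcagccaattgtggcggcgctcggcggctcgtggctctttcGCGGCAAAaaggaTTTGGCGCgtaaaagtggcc
CDT1: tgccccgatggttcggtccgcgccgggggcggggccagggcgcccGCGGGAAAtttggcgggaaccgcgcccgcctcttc
MCM6: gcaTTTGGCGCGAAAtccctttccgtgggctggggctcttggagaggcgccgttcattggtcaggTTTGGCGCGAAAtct
PCNA: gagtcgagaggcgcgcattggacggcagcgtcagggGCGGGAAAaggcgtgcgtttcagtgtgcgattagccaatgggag

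Windows with none of the full words also belonged to genes that rose and to genes that fell. With the first base of each word left out, 34 of the 50 windows (68%) had a match, beside 21% of those of genes tested. Such shorter matches were in the windows of *E2F7* (2), *CDC7* (2), and *RRM1* (1), but not in that of *CCNE1*. *E2F7* (chr12:77065570-77065649, minus) and *CCNE1* (chr19:29811911-29811990, plus) are shown as genes that rose, and *CDC7* (chr1:91500771-91500850, plus) and *RRM1* (chr11:4094605-4094684, plus) as genes that fell; each stretch is the 80 bases just before the start.
E2F7: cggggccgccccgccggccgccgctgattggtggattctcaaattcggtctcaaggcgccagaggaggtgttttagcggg
CCNE1: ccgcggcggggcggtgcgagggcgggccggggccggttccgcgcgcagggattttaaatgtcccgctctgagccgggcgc
CDC7: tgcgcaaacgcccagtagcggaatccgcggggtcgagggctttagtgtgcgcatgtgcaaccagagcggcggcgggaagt
RRM1: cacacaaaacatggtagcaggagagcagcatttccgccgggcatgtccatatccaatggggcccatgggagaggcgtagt

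Among the 22 genes with an E2F word, 16 fell (72.7%) and 1 (*CDC6*) rose (4.55%), with a median log2 fold change of -0.50. Of the 28 windows without one, 14 belonged to genes that fell and 6 to genes that rose, with a median of -0.21. Among the 9 genes without a window in the source, 4 fell and 1 rose. With the same TMM scaling, 31.4% of all genes tested fell and 32.9% rose. The counts with and without a word describe the windows and were not tested against each other.

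The E2F family itself did not move as a unit. *E2F1*, the best known activator of S-phase genes, was at 87.6, 95.0, and 80.0 CPM in DMSO replicates 1, 2, and 3 and at 94.2, 91.1, and 98.2 with mocetinostat, so that the groups overlapped and the log2 fold change was 0.12 ± 0.11 (SE, adjusted p = 0.362). *E2F3*, another activator, was at 77.9, 75.8, and 75.6 CPM with DMSO and at 48.2, 39.7, and 55.5 with mocetinostat. All 3 treated samples were lower, and *E2F3* fell by 0.66 ± 0.13 on the log2 scale (adjusted p = 5.61e-06). *E2F2* was low in both groups (10.3 to 13.4 and 9.30 to 12.0 CPM) and did not pass the test (adjusted p = 0.506). The atypical repressors went opposite ways. *E2F7* was at 82.8, 71.8, and 70.9 CPM with DMSO and at 117, 111, and 96.6 with mocetinostat, a rise of 0.52 ± 0.11 (adjusted p = 3.01e-05). *E2F8* was at 36.9, 26.9, and 33.3 CPM and at 21.1 to 22.0, and it fell by 0.60 ± 0.17 (adjusted p = 0.00167). On the *GAPDH* scale *E2F7* stayed higher (1.06) and *E2F1* became higher (0.65, adjusted p = 4.07e-06), whereas *E2F8* (-0.06) and *E2F3* (-0.13) lost their calls.

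Among the cyclin E and *CDK2* genes 1 of 3 rose, and among the 3 licensing factors 1 rose and 1 fell. These shares were near those of all genes tested, of which 31.4% fell and 32.9% rose. *CCNE1*, which encodes cyclin E1, was at 27.0, 30.4, and 24.8 CPM with DMSO and at 40.0, 36.6, and 41.4 with mocetinostat; every treated sample was higher, with a log2 fold change of 0.54 ± 0.16 (adjusted p = 0.00185). Its paralog *CCNE2* overlapped between the groups (35.0 to 39.5 and 30.4 to 42.3 CPM, adjusted p = 0.989), as did their kinase partner *CDK2* (102 to 115 and 97.4 to 154 CPM, adjusted p = 0.18). *CDC6*, the ATPase that joins ORC to load the helicase, was at 119, 112, and 119 CPM with DMSO and at 194, 200, and 189 with mocetinostat. This gene rose by 0.73 ± 0.09 (adjusted p = 1.13e-10), and its groups were far apart relative to their spread. *CDT1*, the other loading factor, was at 68.1, 76.6, and 78.1 CPM and at 48.0, 57.6, and 53.0 CPM, and it fell by 0.51 ± 0.13 (adjusted p = 0.000307). *GMNN*, the *CDT1* inhibitor, overlapped between the groups (44.4 to 57.8 and 56.4 to 65.2 CPM, 0.18 ± 0.13, adjusted p = 0.225). On the *GAPDH* scale *CDC6* (1.26) and *CCNE1* (1.08) stayed higher, *CCNE2* (0.53, adjusted p = 0.00205), *CDK2* (0.70, adjusted p = 2.58e-06), and *GMNN* (0.72, adjusted p = 1.31e-05) became higher, and *CDT1* was at 0.02, without a call.

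**Figure D3:**
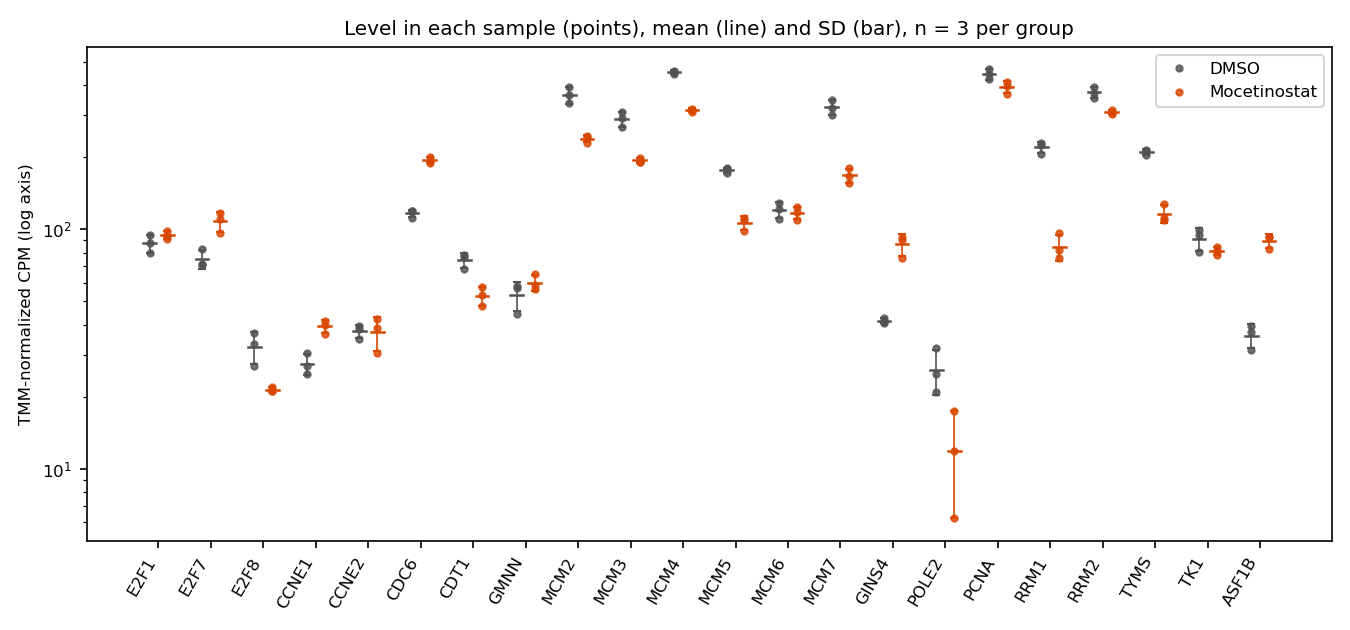
TMM-normalized CPM (log axis) of selected replication and S-phase genes in each sample, with the group mean as a line and the SD as a bar, n = 3 per group. *CDC6*, *GINS4*, and *ASF1B* have all 3 mocetinostat points above the DMSO points, *RRM1*, *TYMS*, and every MCM gene except *MCM6* have them below, and the points of *E2F1*, *CCNE2*, *GMNN*, *MCM6*, and *TK1* overlap.

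The 4 genes of the set that encode subunits of ORC, which marks origins, all fell in the TMM-scaled fit, by uneven amounts, but only *ORC6* did with *GAPDH* scaling. Of all genes tested, 31.4% fell with TMM and 9.82% with *GAPDH* scaling. *ORC6* was at 75.5, 98.5, and 88.7 CPM with DMSO and at 45.0, 47.7, and 41.0 with mocetinostat, a fall of 0.97 ± 0.13 (adjusted p = 5.74e-10). *ORC2* stood at the other end, at 50.7 to 61.9 and 41.0 to 49.6 CPM, with a log2 fold change of -0.30 ± 0.13 (adjusted p = 0.0395). *ORC1* and *ORC3* lay between them, and the groups of *ORC3* overlapped (37.3 to 50.5 against 27.9 to 39.0 CPM, adjusted p = 0.0407). On the *GAPDH* scale *ORC6* alone stayed lower (-0.44, adjusted p = 0.00475), and the other 3 subunits were above 0 without a call.

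Of the 6 helicase genes, 5 fell with TMM scaling (beside 31.4% of all genes) and 1 of them with *GAPDH* scaling (beside 9.82%). *MCM7* was at 323, 301, and 346 CPM with DMSO and at 167, 157, and 180 with mocetinostat, a fall of 0.94 ± 0.09 (adjusted p = 7.53e-16). *MCM5* (172 to 180 against 98.6 to 112 CPM) fell by 0.73 ± 0.10, and *MCM2* (336 to 392 against 230 to 246 CPM) fell by 0.60 ± 0.08. *MCM3* (268 to 309 against 192 to 199 CPM) and *MCM4* (447 to 461 against 310 to 320 CPM) had log2 fold changes of -0.57 ± 0.08 and -0.53 ± 0.08. None of these 5 genes had overlapping groups, and their adjusted p values were at or below 1.44e-08. *MCM6* was at 129, 111, and 122 CPM with DMSO and at 124, 110, and 118 with mocetinostat, with a log2 fold change of -0.04 ± 0.10 (95% confidence interval -0.24 to 0.16, adjusted p = 0.764). Its interval did not reach the value of any other helicase subunit. Within each library, which needs no scaling, the log2 ratio of *MCM6* to *MCM7* counts was -1.32, -1.44, and -1.50 with DMSO and -0.43, -0.52, and -0.61 with mocetinostat; this pair was chosen after its values were seen and has no test. On the *GAPDH* scale 1 of these 5 falls kept its call: *MCM7* stayed lower (-0.41, adjusted p = 0.000325), while *MCM2* (-0.07), *MCM3* (-0.04), and *MCM5* (-0.19) did not pass the test. *MCM4* was at 0.00, and *MCM6* was higher (0.50, adjusted p = 0.000104).

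Of the 9 origin firing genes, 8 fell (beside 31.4% of all genes) and *GINS4* rose. GINS is a complex of 4 subunits that completes the active helicase with *CDC45*. *GINS4* was at 41.2, 42.7, and 40.8 CPM with DMSO and at 93.4, 90.5, and 75.8 with mocetinostat, a log2 fold change of 1.07 ± 0.12 (adjusted p = 9.82e-12). *GINS1*, by contrast, was at 131, 116, and 122 CPM and at 76.1, 60.1, and 71.7 CPM, a fall of 0.80 ± 0.11 (adjusted p = 2.04e-09). *GINS2* and *GINS3* also fell, by 0.49 and 0.70. The log2 ratio of *GINS4* to *GINS1* counts within a library went from -1.67, -1.44, and -1.58 with DMSO to 0.29, 0.59, and 0.08 with mocetinostat, a pair chosen after its values were seen. *DBF4*, the activator of the *CDC7* kinase, was lowest of the group. It went from 58.6, 55.6, and 57.3 CPM to 33.7, 24.8, and 36.5, a fall of 0.82 ± 0.14 (adjusted p = 5.45e-07). *CDC7*, *CDC45*, *MCM10*, and *TICRR* fell by 0.50 to 0.65, and 6 of these 9 genes stayed below 0 on the *GAPDH* scale, *GINS1* (-0.27, adjusted p = 0.0474) with a call. A gene on the opposite strand of *GINS4*, ENSG00000253174, covers 21.0% of its exons, and it had 0 to 2 counts per sample. The call of *GINS4* as a URG was lost when the fold was tested against 1 on the log2 scale.

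Polymerases differed by complex. In polymerase alpha-primase, which lays down primers, *POLA1* was at 88.3 to 97.7 CPM with DMSO and at 67.5 to 84.5 with mocetinostat and fell by 0.32 ± 0.11 (adjusted p = 0.0123). *PRIM2*, the large primase subunit, was at 50.8, 41.4, and 35.2 CPM and at 63.8, 57.6, and 67.1 CPM, and it rose by 0.56 ± 0.13 (adjusted p = 0.000194). *POLA2* and *PRIM1* overlapped between groups. All 5 genes of polymerases delta and epsilon, which copy the lagging and leading strands, fell, from -0.35 ± 0.13 for *POLD1* (adjusted p = 0.0174) to *POLE2*. Of all genes tested, 31.4% fell. The groups of *POLD1* overlapped (60.3 to 85.0 against 46.8 to 70.0 CPM). *POLE2* was at 31.9, 25.0, and 20.9 CPM with DMSO and at 11.9, 17.4, and 6.22 with mocetinostat. The treated samples varied widely but all lay lower, with a log2 fold change of -1.20 ± 0.22 (adjusted p = 2.62e-06). Tested against a fold of 1 on the log2 scale, *POLE2* was not called. On the *GAPDH* scale *POLE2* alone of these 5 genes stayed lower (-0.66, adjusted p = 0.0128), *POLD1* and *POLD2* were above 0, and all 4 alpha-primase genes were above 0.

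Genes of the clamp, its loader, and other fork proteins changed little or in both directions. *PCNA*, the sliding clamp, was at 466, 423, and 444 CPM with DMSO and at 414, 369, and 399 with mocetinostat, a log2 fold change of -0.17 ± 0.08 (adjusted p = 0.0447). The treated samples lay just below the controls, and the call was lost with RLE size factors, with library size alone, with at least 10 counts in every sample (adjusted p = 0.294), with all libraries thinned to 1619344 counts, without mocetinostat replicate 2 (adjusted p = 0.117), and without mocetinostat replicate 3 (adjusted p = 0.0706). Tested against a fold of 1 on the log2 scale it was not called either, and on the *GAPDH* scale *PCNA* was higher (0.36, adjusted p = 0.0005). The clamp loader genes split: *RFC3* fell by 0.62 ± 0.14 (50.6 to 57.1 against 24.8 to 41.0 CPM, adjusted p = 0.000124) and *RFC4* by 0.27, while *RFC5* rose by 0.33 ± 0.13 (46.2 to 56.0 against 56.8 to 69.6 CPM, adjusted p = 0.0213). The groups of *RFC4* overlapped (89.5 to 103 against 68.2 to 92.4 CPM, adjusted p = 0.0366). *RFC1* and *RFC2* did not pass the test. The 3 RPA genes had log2 fold changes of 0.05 (*RPA3*) to 0.15 (*RPA2*), none of which passed the test, and their confidence intervals stayed between -0.20 and 0.41. *FEN1*, the flap nuclease, and *LIG1*, the ligase that joins Okazaki fragments, fell by 0.36 ± 0.10 (adjusted p = 0.00182) and 0.29 ± 0.11 (adjusted p = 0.0181), and were at 0.17 and 0.24 on the *GAPDH* scale. *CLSPN*, a checkpoint mediator at the fork, was at 154 to 179 and 142 to 166 CPM (adjusted p = 0.26), and it was higher on the *GAPDH* scale (0.41, adjusted p = 0.000631). On the *GAPDH* scale, where 55.2% of all genes rose, 4 of the 6 clamp genes and all 3 RPA genes rose.

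Nucleotide supply held the largest fall of the 59 genes in this fit. *RRM1*, the large subunit of ribonucleotide reductase, was at 229, 226, and 206 CPM with DMSO and at 96.2, 81.8, and 75.8 with mocetinostat. All treated samples were far below the controls, with a fall of 1.36 ± 0.10 on the log2 scale (adjusted p = 2.92e-20), and *RRM1* stayed lower on the *GAPDH* scale (-0.83, adjusted p = 1.37e-08) and was the only 1 of the 59 genes called lower when tested against a fold of 1 on the log2 scale. Its partner *RRM2*, the small subunit, was at 394, 373, and 355 CPM and at 304, 306, and 315 CPM, a change of -0.28 ± 0.08 (adjusted p = 0.00118). On the *GAPDH* scale *RRM2* was higher instead (0.25, adjusted p = 0.0123). *TYMS*, thymidylate synthase, went from 204, 213, and 215 CPM to 109, 112, and 128, a fall of 0.86 ± 0.09 (adjusted p = 1.13e-12). It stayed lower on the *GAPDH* scale (-0.33, adjusted p = 0.00538). The antisense gene *ENOSF1* covers 39.9% of the exons of *TYMS* and had 9 to 68 counts per sample. *TK1*, thymidine kinase of the salvage route, overlapped between the groups (80.2 to 99.2 and 78.1 to 84.7 CPM, adjusted p = 0.2). On the *GAPDH* scale, where 55.2% of all genes rose, *TK1* became higher (0.37, adjusted p = 0.00649).

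Chromatin assembly genes did not fall. *ASF1B*, a histone H3-H4 chaperone, was at 39.4, 37.3, and 31.4 CPM with DMSO and at 82.9, 93.0, and 92.8 with mocetinostat, a log2 fold change of 1.30 ± 0.13 (adjusted p = 1.39e-14). It was the largest rise of the set and the only 1 called higher when tested against a fold of 1 on the log2 scale. *SLBP*, which binds the stem-loop of histone mRNAs, rose by 0.29 ± 0.10 (adjusted p = 0.00594), although its samples overlapped (124 to 149 and 145 to 178 CPM). The CAF-1 genes *CHAF1A* (-0.13, adjusted p = 0.235) and *CHAF1B* (0.23, adjusted p = 0.0894) did not pass the test. All 4 genes rose on the *GAPDH* scale, as did 55.2% of all genes.

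Ratios between genes of the same role, or in 1 case between an E2F repressor and an E2F activator, were taken within each library, where no scaling enters. The 10 pairs were *CDT1*/*GMNN*, *CCNE2*/*CCNE1*, *E2F8*/*E2F1*, *ORC1*/*ORC2*, *POLE2*/*POLE*, *PRIM1*/*PRIM2*, *RRM2*/*RRM1*, *CHAF1B*/*CHAF1A*, *CDC7*/*DBF4*, and *RFC3*/*RFC1*. With 3 samples against 3, the exact two-sided permutation test cannot go below p = 0.1, so none could pass 0.05. In that test 6 pairs reached 0.1 (0.167 after adjustment over the 10 pairs), that is, their groups did not overlap. The share of other gene pairs without overlap was not computed. Among single genes tested, 32.8% lay lower and 33.7% higher without overlap, so such pairs may be common. The widest of the 6 pairs was *RRM2* to *RRM1*, whose log2 ratio was 0.78, 0.72, and 0.79 with DMSO and 1.66, 1.90, and 2.05 with mocetinostat, a difference of 1.11. *CDT1* to *GMNN* was 0.24, 0.79, and 0.45 with DMSO and -0.44, -0.02, and -0.09 with mocetinostat, a difference of -0.68. In *CCNE2* to *CCNE1* the mean went from 0.46 ± 0.24 (SD) to -0.10 ± 0.15, and in *E2F8* to *E2F1* from -1.44 ± 0.33 to -2.14 ± 0.06. *RFC3* to *RFC1* dropped by 0.78, and *CHAF1B* to *CHAF1A* went from -1.44 ± 0.14 to -1.11 ± 0.23. The groups overlapped for *ORC1*/*ORC2*, *POLE2*/*POLE*, *PRIM1*/*PRIM2*, and *CDC7*/*DBF4* (exact p from 0.2 to 0.9).

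**Figure D4:**
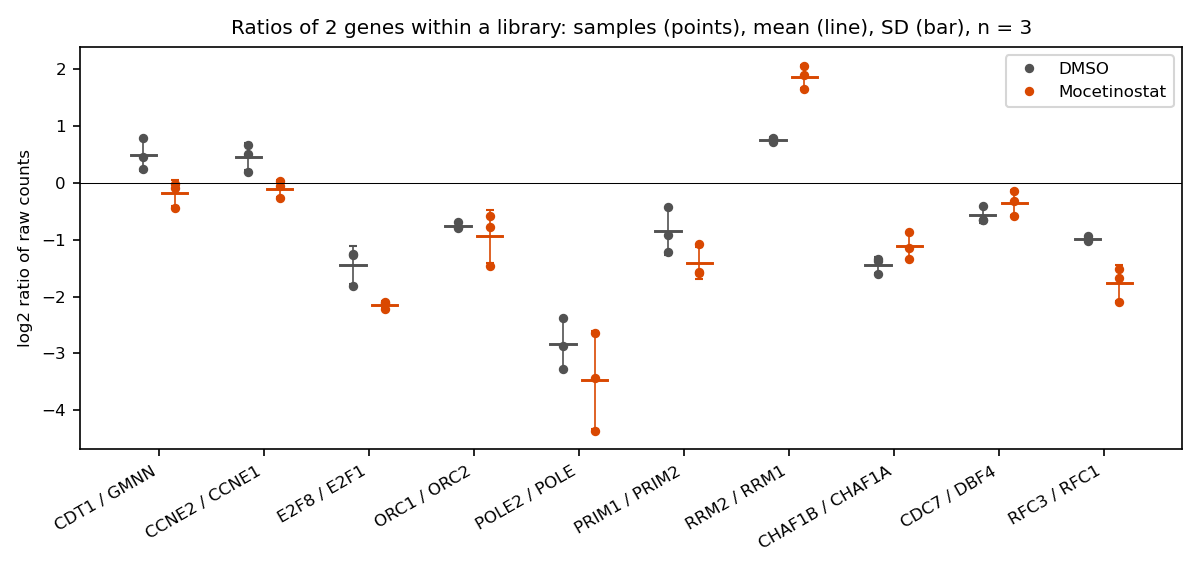
Log2 ratio of the raw counts of 2 genes within each library, for 10 pairs; points are samples, lines are means, and bars are SD, n = 3 per group. *RRM2*/*RRM1* moves up by 1.11, and *CDT1*/*GMNN*, *E2F8*/*E2F1*, and *RFC3*/*RFC1* move down by 0.68 to 0.78, without overlap.

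Levels were compared between genes as TMM-scaled CPM per kilobase of exons. *PCNA* had the highest level of the 59 genes in both groups (317 ± 15.6 with DMSO and 281 with mocetinostat, n = 3), and it kept that place with the length of the canonical transcript. *E2F2* (2.15 with DMSO) and *POLA2* (0.895) were the lowest by either length. *CDC6* moved from place 24 to place 10 of the 59 with mocetinostat and *ASF1B* from 29 to 7, whereas *RRM1* went from 8 to 22. With canonical transcripts the directions held but the places were 29 to 17, 36 to 13, and 10 to 29. Among the helicase genes the levels with DMSO were 79.3 for *MCM3*, 77.1 for *MCM2*, 65.2 for *MCM7*, 46.1 for *MCM4*, 29.2 for *MCM6*, and 24.3 for *MCM5*; *MCM3* and *MCM2* did not differ beyond their SDs (5.61 and 6.00). This order depends on the exon length used, and with canonical transcripts *MCM7* was highest and *MCM6* lowest. With mocetinostat *MCM6* stayed at 28.4, where *MCM7* dropped to 33.9 and *MCM5* to 14.7.

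The rest of the pathway was read from a list of 63 other replication genes, of which 62 were tested. Of these, 36 fell (58.1%, beside 31.4% of all genes) and 6 rose (9.68%, beside 32.9%). DRGs numbered 9 (14.5%, beside 8.18%) and URGs 2 (3.23%, beside 20.2%), and the median log2 fold change was -0.42. On the *GAPDH* scale the median was 0.11, with 11 falling and 21 rising, where 9.82% and 55.2% of all genes fell and rose. The CDK inhibitor gene *CDKN1A*, which encodes p21, was at 52.9, 63.1, and 58.2 CPM with DMSO and at 400, 457, and 401 with mocetinostat, a log2 fold change of 2.86 ± 0.09 (adjusted p = 4.06e-40). *CCNA2*, the S-phase and G2 partner of *CDK2*, was lowest, at 216, 197, and 210 CPM and at 56.9, 53.9, and 51.8 CPM, a fall of 1.93 ± 0.10 (adjusted p = 7.43e-27). Other licensing and firing genes ran from *MCM9* (-1.45 ± 0.23, adjusted p = 7.16e-08) to *ORC4*, an ORC subunit that rose (0.50 ± 0.13, adjusted p = 0.00083). Fork genes ran from *TOP2A* (-1.08) to *POLD4* (1.12), the latter at 1.09 to 4.36 CPM with an adjusted p of 0.0411. *SAMHD1*, which destroys deoxynucleotides, rose by 0.96 ± 0.10 (adjusted p = 2.38e-14), and *CTPS1*, which makes CTP, fell by 0.86 ± 0.10 (adjusted p = 2.43e-11). In the chromatin list values ran from -0.74 (*CDCA7*) to 0.10 (*HELLS*), and in the S-phase checkpoint list from -0.76 (*CHEK1*) to -0.08 (*RAD17*).

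Values were lower still for G2/M genes, the other large set of proliferation genes. Of 51 tested, 49 fell (96.1%, beside 31.4% of all genes) and 27 were DRGs (52.9%, beside 8.18%). The median log2 fold change was -1.11, with values from -2.13 (*AURKA*) to 0.17 (*LBR*). On the *GAPDH* scale 38 fell (74.5%, beside 9.82% of all genes) and the median was -0.59. The median of the replication genes had 35.2% of all genes tested below it, and that of the G2/M genes had 6.24%. Summed within each library, counts of the 59 replication genes were 0.547, 0.557, and 0.577 times those of the G2/M genes with DMSO and 0.901, 0.896, and 0.889 times with mocetinostat. The sums were 0.662% to 0.681% of all counts with DMSO and 0.545% to 0.561% with mocetinostat for the replication genes, and 1.18% to 1.23% and 0.608% to 0.628% for the G2/M genes. The difference between the lists has no test here.

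**Figure D5:**
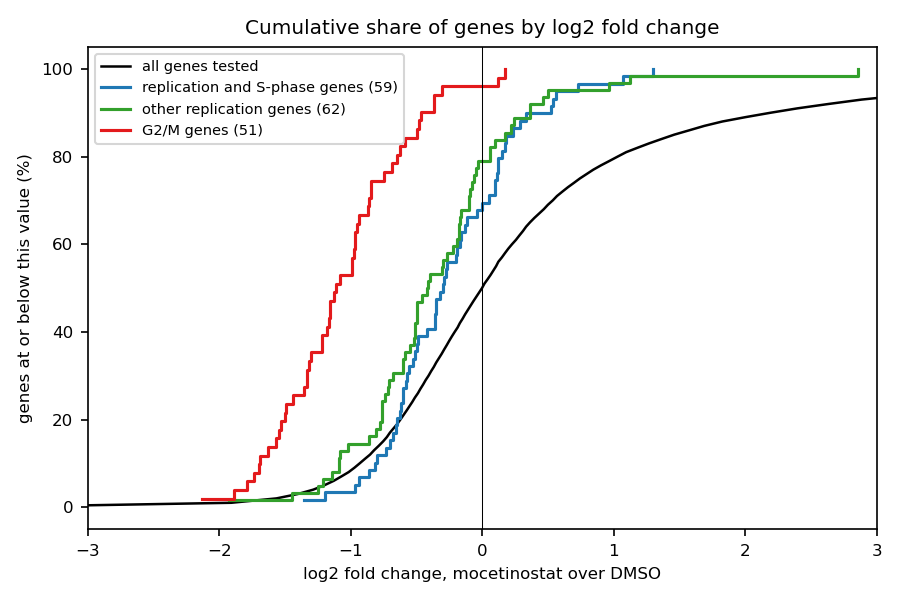
Cumulative percent of genes by log2 fold change (mocetinostat over DMSO, TMM scaling) for all genes tested, the replication and S-phase genes, other replication genes, and G2/M genes. The replication curve crosses 50% at -0.30 and the G2/M curve at -1.11; scaling to *GAPDH* would move every curve right by about 0.53.

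Exons of 8 of the 59 genes (*CCNE2*, *CDK2*, *MCM2*, *GINS3*, *GINS4*, *POLA2*, *PRIM1*, and *TYMS*) are covered for 10% or more by another gene, and the sources used here do not say whether strand was used in counting. Without these 8, 31 of 51 genes fell, 7 rose, 2 were DRGs, and 1 was a URG. Leaving out any single sample kept the number of falling genes between 30 and 33 and the number of rising genes between 6 and 9.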

How the data were processed

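TC28a2 cells treated with mocetinostat or DMSO were profiled by RNA-Seq, with 3 samples per group. The deposited values were raw counts per gene; according to the methods, the authors trimmed the reads, removed ribosomal RNA reads, aligned the rest to GRCh38 with STAR (2.6.1d), and assigned them with featureCounts (1.6.4). Strand and multi-mapping settings are not given in the sources used here.

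edgeR 4.0.16 (R 4.3.3) computed TMM factors, kept 13966 genes with filterByExpr (minimum count 10), and fitted treatment alone by its quasi-likelihood test with Benjamini-Hochberg adjustment over all genes tested. DRGs and URGs followed the thresholds of the study (adjusted p under 0.05, log2 fold change beyond 1). Genes named with values are the core S-phase genes, the lowest and the highest gene of each role, and the same for each sub-list of the other genes; MCM6 against MCM7 and GINS4 against GINS1 were added after their values were seen. Genes and lists were chosen with earlier results of these data known. Levels used exon lengths of GENCODE release 44, which matched 99.5% of the gene identifiers; the length of the canonical transcript and the count without overlapped genes were added after seeing the data. Promoter sequences are from RefSeq (GRCh38.p14). Each sample counted as a replicate because the study describes the samples as independent experiments. Pairs of replicates differed by more than sampling noise (chi-square per degree of freedom 1.93 to 7.95 over 6 pairs). That difference cannot show independence, since separate libraries of the same RNA could also differ. Alternatives were DESeq2 1.42.0, RLE size factors, library size only, GAPDH scaling, no filter, a replicate block, at least 10 counts in every sample, edgeR's glmTreat, thinning to 1619344 counts, and each sample left out. The fits were tested on simulated counts. Python 3.11.15, pandas 2.3.3, scipy 1.17.1, and matplotlib 3.10.9 were used for the rest.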

Additional observations from a re-analysis of the deposited data

How the results depend on the processing

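Scaling and the minimum fold moved the numbers of falling genes most. With GAPDH scaling 6 of the 59 replication genes fell and 25 rose, with 0 DRGs, 6 URGs, and a median of 0.23, where 9.82% of all genes fell, 55.2% rose, 2.03% were DRGs, and 31.7% were URGs; the median of all genes moved to 0.53 by construction of the scale. The other replication genes then had 11 falling, 21 rising, 1 DRG, and 4 URGs, and the G2/M genes had 2 rising and 9 DRGs. The 59 genes had 41 values below 0 with TMM and 19 on that scale; among the genes named by rule that had passed the test, the sign changed for *CDT1* (0.02), *MCM4* (0.00), *PCNA* (0.36), *RRM2* (0.25), *ORC2* (0.23), *POLA1* (0.22), *POLD1* (0.18), *FEN1* (0.17), and *LIG1* (0.24). With glmTreat against a log2 fold change of 1, the replication genes had 1 falling, 1 rising, 1 DRG, and 1 URG. The other replication genes then had 2 falling, 1 rising, 2 DRGs, and 1 URG, and 19 G2/M genes fell. Of all 13966 genes, 465 fell and 2069 rose in that fit. Without a filter the replication genes had 3 rising, 7 DRGs, 1 URG, and a median of -0.56. The other replication genes had 2 rising, 15 DRGs, and 1 URG, and all 40504 genes had 4245 rising, 2120 DRGs, and 3201 URGs. TMM over all genes with a count moved the median of the same 13966 genes to -0.25. The median of the replication genes was -0.34 with DESeq2, -0.23 with 10 counts in every sample, and -0.20 with thinning. DESeq2 left 1 URG among the other replication genes, and 10 counts in every sample gave 1 rising G2/M gene. Leaving out 1 sample gave 1 to 2 URGs among the replication genes (1 without mocetinostat replicate 1), 1 to 2 among the other replication genes, 0 to 1 rising G2/M genes (1 without DMSO replicate 1), and medians of the replication genes of -0.34 to -0.30. The highest over the lowest level of the MCM2-7 genes was 4.07 with DMSO and 2.51 with mocetinostat by canonical length, beside 3.26 and 3.63 by exon length; the cause of the other shifts was not tested. Replicate numbers did not pair the samples (correlations of same-numbered deviations -0.0162 to 0.0116); with the replicate number as a block, 34 replication genes fell and 8 rose, and 1 of the other replication genes was a URG.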
